A study of Mus musculus with 11 samples.

Results

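RBPJ binding in Beko cells was examined through 1538 regions of acetylated chromatin that the authors' deposited table marks as overlapping an RBPJ site, of 56342 regions in all. Beko is a mouse pre-T cell line. Chromatin immunoprecipitation and sequencing (ChIP-seq) was used to map RBPJ in cells given DMSO for 24 h (2 libraries), with 1 input library of the same treatment. H3K27ac, the acetylated form of histone H3 found at promoters and enhancers in use, was mapped in 2 libraries each after DMSO, apicidin at 0.01 mg/ml or the gamma-secretase inhibitor DAPT at 10 mg/ml. The deposited table lists H3K27ac regions, and which libraries set them was not given in the labels or headers. A region is called marked below when its overlap entry is 1, and unmarked when it is 0 (54804 regions). The mark is a single yes or no over both RBPJ libraries, so binding strength, the spread between the libraries and the sequencing depth are unknown. RBPJ sites outside acetylated regions are not analysed here, and no test was made, because regions are not replicates. Intervals are 95% Wilson intervals and cover counting error only, with neighbouring regions counted as if independent.

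RBPJ is the DNA-binding protein of the Notch pathway. A Notch receptor that meets its ligand on a neighbouring cell is cut, last by gamma-secretase, and its intracellular part enters the nucleus and joins RBPJ and a Mastermind protein to activate transcription. Without Notch, RBPJ can sit on DNA with corepressors such as SPEN and with histone deacetylase complexes. Notch signalling directs blood progenitors into the T lineage and is strong at the pre-T stage, where Hes1, Dtx1, Il2ra and Myc are well-known targets. RBPJ recognises sequences around the core TGGGAA, with CGTGGGAA a strong site and CGTGAGAA a known variant. The core letters are shared by the lymphoid factor Ikaros.

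This recognition site was more frequent in marked promoters, as counted further on, and 5 stretches show it. They are 40 bases each from the promoters of strongly acetylated genes whose marked region covers the transcription start site (TSS), with the match CGTGGGAA or its complement in capitals. They were picked by acetylation signal after the motif counts were known, and are given 5′ to 3′ on the gene's strand, from RefSeq on GRCm38.p6.
Rara: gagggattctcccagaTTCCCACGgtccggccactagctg
Sidt2: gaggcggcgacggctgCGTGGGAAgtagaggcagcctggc
Rilpl2: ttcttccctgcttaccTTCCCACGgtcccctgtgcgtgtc
Pon2: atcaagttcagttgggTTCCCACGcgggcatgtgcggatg
Hdhd5: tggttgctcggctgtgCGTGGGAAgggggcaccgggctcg
These lie at chr11:98937467-98937506, plus strand for Rara, a retinoic acid receptor gene, and at chr9:45955318-45955357, minus strand for Sidt2. The others are at chr5:124478282-124478321, minus strand for Rilpl2, chr6:5298440-5298479, minus strand for Pon2 and chr6:120531338-120531377, minus strand for Hdhd5. The match begins 213 bases before the start in Rara, 92 in Sidt2, 70 in Rilpl2, 123 in Pon2 and 62 in Hdhd5.

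Longer stretches, the 250 bases before the RefSeq start, show the Notch pathway's own genes and the genes with most matches. Here the capitals mark every TGGGAA or its complement TTCCCA. Of 17 genes of the Notch lists with a marked region over the TSS, 12 had a RefSeq window. Among these 12, Rbpj, Spen and Skp2 had a match in the window listed first for the gene. Hes1, Hey1, Heyl, Myc and Mfng had no window and were not searched. Tha1 had the most matches of all marked promoters, 4, of which 3 lie before the start. Zfpm1, Ddx59 and Gna11 are the most strongly acetylated of the marked promoters with GTGGGAA at 2 places, and were chosen after the counts were seen.
Rbpj promoter: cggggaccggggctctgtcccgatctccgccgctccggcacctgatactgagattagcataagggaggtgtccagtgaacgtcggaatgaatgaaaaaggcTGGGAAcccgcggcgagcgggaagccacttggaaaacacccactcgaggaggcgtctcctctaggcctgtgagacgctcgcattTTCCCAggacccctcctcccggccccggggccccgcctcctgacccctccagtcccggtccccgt
Spen promoter: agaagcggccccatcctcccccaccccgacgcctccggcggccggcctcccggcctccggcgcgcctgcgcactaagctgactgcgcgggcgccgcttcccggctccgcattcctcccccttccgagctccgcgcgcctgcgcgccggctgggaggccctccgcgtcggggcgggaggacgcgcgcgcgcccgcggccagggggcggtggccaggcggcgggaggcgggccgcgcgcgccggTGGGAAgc
Skp2 promoter: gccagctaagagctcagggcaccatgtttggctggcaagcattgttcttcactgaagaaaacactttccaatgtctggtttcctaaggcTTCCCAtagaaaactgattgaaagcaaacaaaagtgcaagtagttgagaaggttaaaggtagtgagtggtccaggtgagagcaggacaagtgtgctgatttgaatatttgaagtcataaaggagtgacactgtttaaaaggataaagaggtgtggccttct
Tha1 promoter: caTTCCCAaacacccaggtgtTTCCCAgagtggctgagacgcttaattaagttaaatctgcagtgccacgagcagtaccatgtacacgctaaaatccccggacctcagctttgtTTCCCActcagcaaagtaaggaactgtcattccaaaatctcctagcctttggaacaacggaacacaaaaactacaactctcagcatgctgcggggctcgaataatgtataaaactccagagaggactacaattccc
Zfpm1 promoter: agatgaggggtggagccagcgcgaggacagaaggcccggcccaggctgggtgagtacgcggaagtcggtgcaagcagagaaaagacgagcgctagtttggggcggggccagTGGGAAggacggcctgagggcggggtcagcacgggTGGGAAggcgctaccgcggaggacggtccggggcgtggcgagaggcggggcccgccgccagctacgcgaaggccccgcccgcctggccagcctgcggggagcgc
Ddx59 promoter: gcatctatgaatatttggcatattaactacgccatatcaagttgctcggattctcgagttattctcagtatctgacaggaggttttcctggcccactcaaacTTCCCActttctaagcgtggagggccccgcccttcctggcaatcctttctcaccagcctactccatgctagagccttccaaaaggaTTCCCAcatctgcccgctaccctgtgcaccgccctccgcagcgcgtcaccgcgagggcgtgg
Gna11 promoter: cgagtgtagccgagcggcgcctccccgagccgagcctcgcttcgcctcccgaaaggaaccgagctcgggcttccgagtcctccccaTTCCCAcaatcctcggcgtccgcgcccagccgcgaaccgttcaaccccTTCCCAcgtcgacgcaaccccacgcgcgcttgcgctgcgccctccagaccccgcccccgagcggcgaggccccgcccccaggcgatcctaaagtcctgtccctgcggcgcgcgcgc
On GRCm38.p6 the stretches are chr5:53590096-53590345, plus strand (Rbpj), chr4:141538598-141538847, minus strand (Spen) and chr15:9155426-9155675, minus strand (Skp2). Tha1 is at chr11:117873527-117873776, minus strand, Zfpm1 at chr8:122281891-122282140, plus strand, Ddx59 at chr1:136415021-136415270, plus strand and Gna11 at chr10:81545163-81545412, minus strand. The Rbpj stretch holds the core at 149 bases before the start and its complement at 65, whereas the single Spen match begins 8 bases before the start and is part of a GTGGGAA. The 2 matches begin 139 and 104 bases before the start in Zfpm1, 148 and 62 in Ddx59, and 164 and 116 in Gna11. Each gene has 1 stretch here although some genes, Rbpj and Skp2 among them, have several RefSeq starts, and the regions are on build mm9, so which start a region covers was not determined.

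RBPJ marks sat at gene starts. Of the 1538 marked regions, 947 (61.6%) covered a TSS, and a further 354 (23.0%) lay within 1000 bp of one without covering it. Together 1301 (84.6%) were within 1000 bp of a TSS, against 18.5% of the unmarked regions. Over all regions 2.73% were marked, but the share ran from 12.0% (11.3 to 12.7%) of the 7889 regions over a TSS and 9.96% (9.02 to 11.0%) of those 1 to 1000 bp away down to 0.358% (0.277 to 0.462%) of those over 1000 and up to 10000 bp away. It was 0.610% up to 50000 bp, 0.669% up to 200000 bp and 0.516% beyond, so that past 1000 bp no distance class reached 1%. The classes were not matched for width or H3K27ac signal, which are taken up below.

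**Figure D1:**
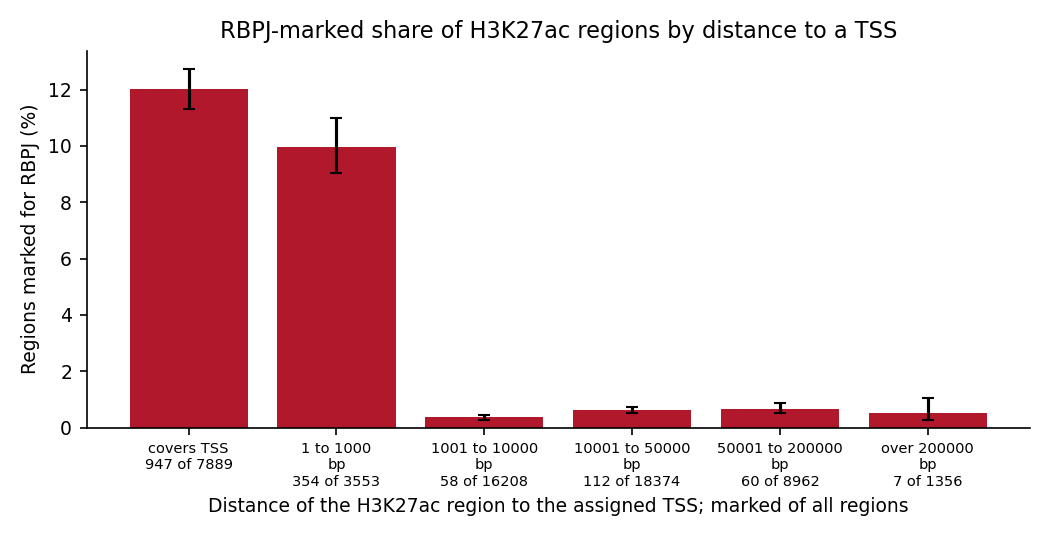
Share of H3K27ac regions that carry the RBPJ mark (vertical axis, percent) by distance of the region to its assigned TSS, with 95% Wilson intervals as bars and the counts under each column. The 2 classes within 1000 bp stand at 12.0% and 9.96%, the 4 farther classes all below 1%.

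Within the flank of the TSS the share fell further out. It was 11.4% at 1 to 100 bp, 14.9% at 101 to 200 bp and 13.7% at 201 to 300 bp, then 6.08% at 401 to 500 bp and 0.909% at 901 to 1000 bp. The median distance of flanking regions was 154.5 bp for marked and 205 bp for unmarked ones.

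Many marked flanking regions were the neighbour of another marked region across a short gap. Of all pairs of adjacent regions no more than 1000 bp apart, 259 had both members marked, and their gaps ran from 20 to 389 bp with a median of 142 bp. No gap between successive marked regions fell between 389 bp and 3274 bp. Pairs with neither member marked had a median gap of 208 bp and went up to the full 1000 bp. Of the 259 marked pairs, 236 had a member within 1000 bp of a TSS, and 196 had one that covered a TSS. Among the 354 marked flanking regions, 251 (70.9%) had a marked neighbour within 389 bp, against 6.31% of the unmarked flanking regions. That limit was the largest gap of the marked pairs themselves, and marked neighbours of unmarked regions farther off were not counted. Any neighbour within the limit was found for 95.5% of the marked and 78.5% of the unmarked flanking regions. A single RBPJ site wider than the gap would mark both sides of it, and the number of sites behind the marks is unknown. Joined over gaps of at most 1000 bp, the 1538 marked regions made 1279 groups, of which 1022 held 1 region, 255 held 2 and 2 held 3.

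**Figure D2:**
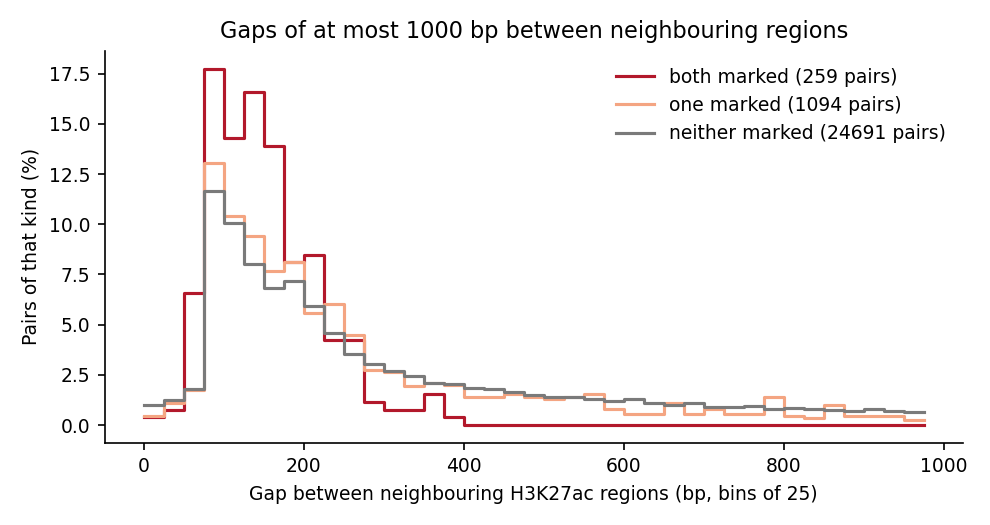
Gaps of at most 1000 bp between neighbouring H3K27ac regions (horizontal axis, bp in bins of 25) as a percent of the pairs of each kind. Pairs with both members marked end at 389 bp, whereas pairs with neither marked extend to 1000 bp.

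Marked regions had more acetylation signal than unmarked ones, and the contrast was larger away from promoters. Signal is the base mean, the authors' mean of normalised H3K27ac reads, and signal per kb divides it by the width of the region. Which libraries were averaged was not given, and the base mean is not taken as a value of DMSO cells alone, whereas RBPJ was mapped in DMSO cells only. Away from a TSS by more than 1000 bp, the 237 marked regions had a median width of 3640 bp against 505 bp for 44663 unmarked ones. Their median base mean was 801 against 46.6, and their median signal per kb 239 against 99.5. Over a TSS the contrast was small: the median width was 2150 bp for marked and 1899.5 bp for unmarked regions, and the median base mean 591 and 455. Per kb, these TSS regions had a median signal of 271 and 232, a ratio of 1.17.

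A wider region has more room for an overlap, and the marked share rose with width. Among regions over a TSS it went from 6.59% in the narrowest of 10 deciles to 16.2% in the widest. Off a TSS it went from 0 of 4846 regions, with an upper Wilson limit of 0.0792%, to 3.78%. The share also rose with signal per kb, from 3.68% to 19.5% over a TSS and from 0.0413% to 8.30% off it. The top decile off a TSS had a median signal per kb of 225, as did decile 5 over a TSS, where 12.8% were marked. These 2 deciles span unlike ranges, and the one off a TSS takes in regions within 1000 bp of a start. At like width the difference in signal per kb remained in the same direction. Over a TSS the marked median was the higher in 10 of 10 width deciles, by 1.03 to 1.34 times. Off a TSS it was higher in all 6 deciles with at least 20 marked regions, by 1.47 to 2.13 times. Distance was not matched there: 354 of the 591 marked regions off a TSS lay within 1000 bp of one, against 3199 of the 47862 unmarked.

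**Figure D3:**
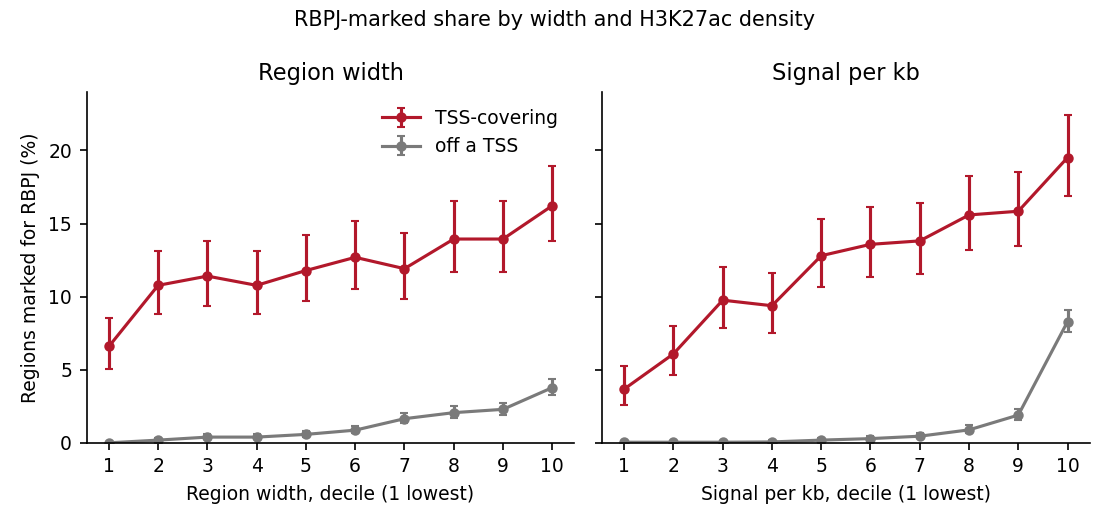
Share of regions with the RBPJ mark (vertical axis, percent, with 95% Wilson intervals) by decile of region width (left) and of H3K27ac signal per kb (right), for regions over a TSS and off it. Off a TSS the top decile of signal per kb holds 8.30% marked regions, against 1.90% in the decile under it.

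Marked regions were 2.73% of regions, 6.61% of the covered length and 10.2% of the summed base mean. Of the 100 regions with the highest base mean 26 were marked, of the 1000 highest 167, and of the 10000 highest 983. The strongest region of the whole table was a marked one at Rhoh (chr5:66240299-66269968 on mm9), a gene needed in T cell development, with a base mean of 14330 over 29670 bp. It was followed by Hdac7, a class IIa histone deacetylase gene of thymocytes, at 14106 (chr15:97650883-97681065), and by Notch1 at 12722. Mir142, the locus of a blood-specific microRNA, stood at 11726 (chr11:87556078-87574579). Among the other members of the 10 strongest marked regions were Pgpep1l (11336), Cxxc5 (11159) and the antiproliferative gene Btg2 (9760), all over a TSS. Of the 10 strongest regions of the whole table, marked or not, 6 were marked.

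The strongest marked regions off a TSS were long. A region 12969 bp from the Ly6e start (chr15:74756666-74772511) had a base mean of 11340 over 15846 bp. The next were assigned to the noncoding 1810026B05Rik (10549 over 28481 bp), to 4933406K04Rik (10095 over 27644 bp), to Stard3nl (8632) and to 2010109I03Rik (7272), the last within 30 kb of the Ly6e region. The 4933406K04Rik region (chr12:108373997-108401640) was also the one farthest from its assigned start, at 419462 bp. After it came regions of 2610307P16Rik at 364258 bp, Pcmtd1 at 309213 bp, Chrm3 at 292785 bp and Rnls at 288661 bp. Of these, the Pcmtd1 region was weak, with a base mean of 53.4 over 571 bp. Assignment is by the authors, and over such distances a gene name says only where the region lies.

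At the other end were narrow regions. Tnip2 (211 bp, base mean 38.9) covered a TSS, while Actl6a (217 bp, 18.2), Clic4 (226 bp, 23.1) and Gdpd5 (227 bp, 46.4) lay 198, 385 and 229 bp from one. Another, 12314 bp from the start of the immediate-early gene Fos (220 bp), had the lowest base mean of all marked regions, 12.7. The 5 widest were Notch1 (40582 bp), Pgpep1l (31971 bp), Hdac7 (30183 bp), Cxxc5 (29836 bp) and Rhoh (29670 bp).

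Marks were spread over many genes. At least 1 marked region was assigned to 1294 of 12081 gene symbols (10.7%). Of these, 1059 had 1 marked region, 226 had 2 and 9 had 3. The 9 were Lef1, Fam86, Hey1, Ptma, Ndrg1, Socs3, Ap5z1, Ccdc9 and Trappc9. In Fam86, Hey1 and Lef1 the marked regions stood apart with no close marked neighbour, whereas in Ap5z1, Ccdc9, Ndrg1, Ptma, Socs3 and Trappc9 they included neighbours across a short gap. At Socs3, a feedback inhibitor of cytokine signalling, a region of 7618 bp over the TSS (base mean 2211) was flanked by one of 1302 bp (125), and the last lay 12860 bp from the start (1406). Among symbols with 2, Rhoh had the highest summed signal, with 2 marked regions of its 18.

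The genes of the Notch pathway are taken in the order of the signal. Of 5 ligand genes, Dll4 alone had a region, a weak one (base mean 33.8) without a mark. Of 4 receptor genes, Notch1 and Notch3 were marked over the TSS, where 12.2% of all symbols with such a region are marked. Notch2 had 3 regions without a mark and Notch4 had none. The Notch1 region (chr2:26336543-26377124) was the widest of all 56342, at 40582 bp, and 1 of 14 assigned to the gene. The Notch3 region (chr17:32297474-32309241) had a base mean of 3494 and was 1 of 7.

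Of 18 genes for receptor processing and trafficking, all had a region and 5 were marked (27.8%, 12.5 to 50.9%), against 10.7% of all symbols and 12.2% of those with a region over a TSS. Adam10, the protease that makes the cut before gamma-secretase, had a marked region over its TSS (base mean 872) and another 186 bp from it (152) across a gap. Aph1b, a gamma-secretase subunit gene, had its only region marked (333). Mfng, which encodes a Fringe glycosyltransferase that modifies Notch, was marked at 1996, the E3 ligase gene Mib2 at 665, and Numbl, a relative of the Notch inhibitor Numb, at 436. All 5 genes were marked over the TSS.

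Of 8 genes for RBPJ and coactivators with a region, Rbpj alone was marked (12.5%, 2.24 to 47.1%), over its own TSS (chr5:53979343-53983099, base mean 1117). The acetyltransferase genes Ep300 and Crebbp and the Mastermind genes Maml1 and Maml3 were not. Of 19 corepressor genes with a region 3 were marked (15.8%, 5.52 to 37.6%), near the 10.7% of all symbols, and all over the TSS: Spen (766), Ctbp1 (813) and Sin3a (486). The genes Hdac1, Hdac2, Hdac3 and Ncor1 had regions without a mark.

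Known Notch target genes were often marked, and 6 of their 19 marked regions covered a TSS. Of 24 such genes with a region, 12 (50.0%, 31.4 to 68.6%) had at least 1 marked region, 6 of them over the TSS (of 21 with a region there). These genes had 17.1 regions each, against 4.66 over all symbols, and the share of marked symbols rose with the number of regions, from 6.01% with 1 region to 17.7% with 11 to 20 and 25.5% with more than 20. The list was drawn up with results of these data and the wider literature on RBPJ targets known, so its share is a description.

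Among the marked transcriptional repressors of the Hes and Hey families, Hes1 had a compact marked region over its TSS of 1862 bp (base mean 302), 1 of 3. The strongest Hes1 region (334), 276 bp from the start, had no mark. Heyl had a marked region of 1631 bp over its TSS (225), 1 of 4, although its strongest region (1818) had no mark. Hey1 had 3 marked regions of 21: one over the TSS (1830, chr3:8662984-8671070), one 46556 bp away (2781, chr3:8713595-8719880) and one 97998 bp away (1576, chr3:8765037-8768556). The strongest of the 3 was thus the middle one, and it was the strongest of all regions of the gene.

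Dtx1, Nrarp, Trib2 and Il2ra carried marks only away from their starts. Dtx1, which encodes a ubiquitin ligase that acts on Notch, had its marked region 19246 bp from the TSS (chr5:121132301-121142431, base mean 1757), while its strongest region (2002) was unmarked. Nrarp, an inhibitor of the Notch nuclear complex, had its strongest region, 8689 bp away, marked (2393). Trib2, a pseudokinase gene, was marked 9586 bp away (792). The interleukin-2 receptor gene Il2ra had 2 marked regions of 16, at 13054 bp (chr2:11538831-11551364, 2909) and 11501 bp (chr2:11575921-11580038, 485), and no region over its TSS.

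The T cell factor genes Tcf7 and Lef1 were also marked only at a distance. The Lef1 regions lay 158417, 130506 and 84982 bp from the start with base means of 4113, 2456 and 2190, out of 65 regions assigned to the gene. The Tcf7 regions were adjacent, 21731 and 32275 bp away, with base means of 2056 and 563 and a gap of 137 bp. The strongest Tcf7 region (8020) had no mark.

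The remaining marked targets were Myc, Ccnd3 and Skp2. Myc had 1 of its 2 regions marked, over the TSS (chr15:61815096-61822757, base mean 3680). Ccnd3, the cyclin D3 gene of pre-T cell expansion, was marked over a TSS (4284) and 32322 bp away (1450), out of 32 regions. Skp2, a ubiquitin ligase subunit gene, had a marked region of 903 bp over the TSS (290), while its strongest region (331) was unmarked. The other 12 target genes with regions had no mark. They were Ptcra (4795, 1 region), the cyclin D1 gene Ccnd1 (strongest region 2340, 18 regions), Bcl11b, Bcl2, Cd44, Cdkn1a, Gata3, Hes7, Igf1r, Il7r, Runx1 and Runx3.

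**Figure D4:**
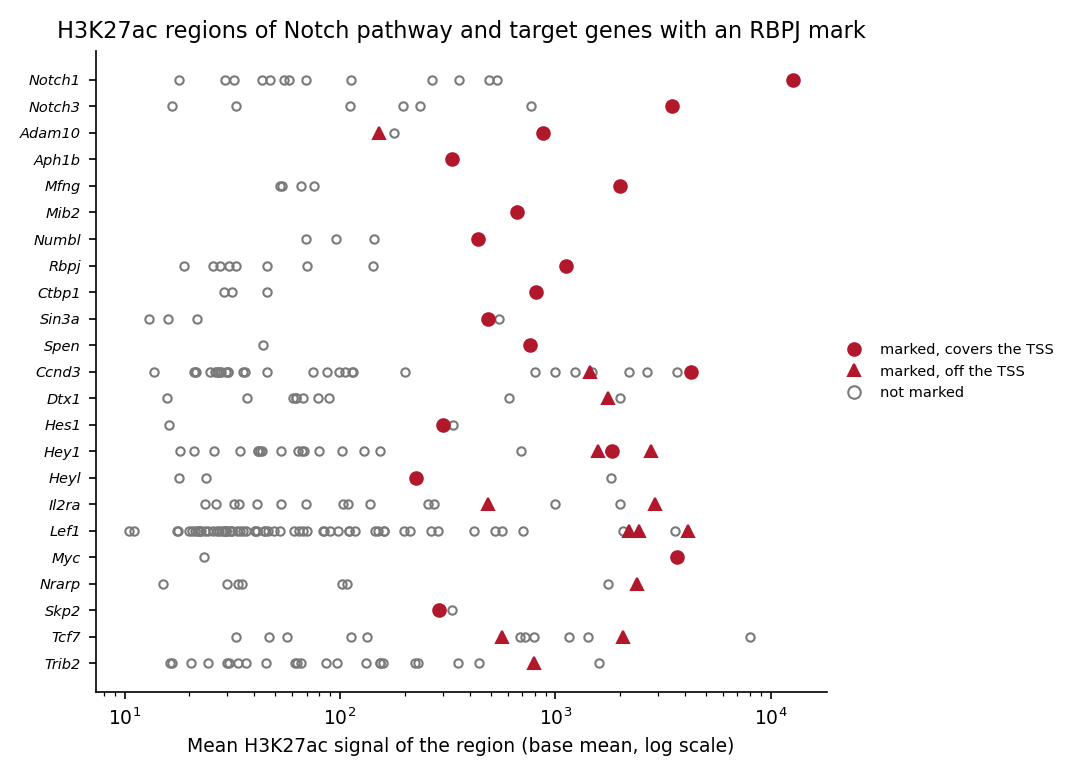
Mean H3K27ac signal (horizontal axis, base mean, log scale) of every region assigned to the Notch pathway and target genes that have an RBPJ mark; filled circles are marked regions over the TSS, triangles marked regions off it, open circles unmarked regions. In Notch1, Notch3, Myc and Nrarp, among others, a marked region is the strongest. In Heyl, Tcf7, Trib2, Dtx1, Hes1, Skp2 and Sin3a an unmarked one is.

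Other lists are read against the 10.7% of all symbols with a mark. Of 31 T-lineage genes with a region 7 (22.6%) were marked, at 20.9 regions per gene, which is within the 17.7 to 25.5% of all symbols with as many regions: Gfi1, Lck, Rag1, Rag2, Tcf12, Tcf3 and Thy1. The E-protein gene Tcf12 had the strongest of these regions (base mean 8394), followed by Gfi1, which encodes a transcriptional repressor (7007), and Thy1 (3927). The recombinase gene Rag1 was marked over the TSS (690), and the region assigned to Rag2 lay 68331 bp away (1240). Of 22 cell-cycle genes 5 were marked (22.7%, 10.1 to 43.4%), all over the TSS, namely Ccna2, Ccne1, Cdk2, Cdk4 and E2f3. Of 18 ribosomal protein genes 1 was marked, Rps3, by a region 78 bp from the start, and of 14 housekeeping genes 1, Actb. No gene of the B-lineage, myeloid, erythroid and megakaryocyte, or fibroblast and epithelial lists was marked, with 5, 3, 4 and 6 genes having any region, too few to tell 0 from 10.7%.

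The label of the cells was checked on markers. Of 12 defining T-lineage genes 10 had an acetylated region over the TSS (Cd3d and Il2ra had regions elsewhere), with a median base mean of 3347 for the strongest region of each. Of the defining B-lineage, myeloid, erythroid, and fibroblast and epithelial genes, 0 of 5, 0 of 6, 0 of 3 and 0 of 5 had one. Regions elsewhere at these genes reached base means of 260 for B-lineage, 1245 for myeloid (Itgam, the only one of the 6 with a region), 871 for erythroid and 1014 for fibroblast and epithelial genes. In the longer lists Igll1 (70.1) and Pdgfrb (637) each had a region over the TSS, both without a mark.

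By type of gene, 2.83% of regions assigned to protein-coding genes were marked, 1.76% of those of long noncoding RNAs and 1.61% of those of microRNAs. The types differed in how many regions covered a TSS: 7496 of 50804, 283 of 3860 and 28 of 867. Of these TSS regions 902, 26 and 4 were marked, so the order of the shares over all regions did not hold over a TSS. Regions of small nucleolar RNA genes were marked in 8 of 119 cases (6.72%, 3.45 to 12.7%). All 8 were among the 23 over a TSS, Snora68, Snord55 and Snord15a among them. Such RNAs lie in introns of host genes, and the marked Snord15a region ended just before the marked region of Rps3. The 14 marked microRNA regions included Mir142 over the TSS, one 150517 bp from Mir181a-1 (base mean 2889), whose product tunes T cell receptor signalling, and 2 each near Mir30d and Mirlet7a-1.

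Across the 20 chromosomes with at least 100 regions, the marked share ran from 1.81% on chromosome 6 to 4.03% (3.40 to 4.76%) on chromosome 15. On chromosome 15 marks lay on 82 of 351 regions over a TSS, or 23.4% (19.2 to 28.1%), whereas the other chromosomes ran from 6.82% to 16.0%. Off a TSS the share was 1.67% there and 1.19% elsewhere. The H3K27ac signal per kb was also higher on chromosome 15, with a median of 129 against 102 to 109 on each of the others. It was higher both over a TSS (303 against 235 elsewhere) and off it (123 against 99.7). No value per library was used, so this signal was not set against the inputs. Weighted to the signal per kb of chromosome 15, the share of the other chromosomes was 13.5% over a TSS and 1.99% off it. The part of signal in the share on chromosome 15 was not tested further.

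Marked regions further apart formed loose groups. Joined over at most 50000 bp, 42 groups held 3 or more. One of the 8 groups of 4 spanned Ddx54, Rasal1 and Dtx1 over 73661 bp on chromosome 5, and another Rab5b, Cdk2, Dgka and Wibg over 56039 bp on chromosome 10. The Hey1 and Lef1 regions above made groups of 3 over 105573 and 85951 bp.

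The recognition sequence was then counted in promoters. RefSeq windows of 250 bases before to 50 after a start were found for 756 of 943 genes with a marked region over the TSS (80.2%) and for 6244 of 7733 genes with any region over the TSS (80.7%). The core TGGGAA, on either strand, was present in 30.3% (27.1 to 33.7%) of the 756 marked promoters, in 21.5% (20.4 to 22.6%) of the 5488 unmarked ones and in 25.5% of all 27025 RefSeq promoters. GTGGGAA, which contains the core, was present in 11.9% (9.79 to 14.4%) of marked, 5.05% (4.50 to 5.66%) of unmarked and 6.39% of all promoters. Matches of GTGGGAA at 2 or more places were found in 9 marked promoters (1.19%) and 6 unmarked ones (0.109%).

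The full sites, searched after these counts were seen, differed more. CGTGGGAA was in 34 marked promoters, 4.50% (3.24 to 6.22%), against 0.765% (0.567 to 1.03%) of unmarked and 0.762% of all. For CGTGAGAA, which does not hold the core, the shares were 2.12% (1.31 to 3.41%), 0.419% (0.279 to 0.628%) and 0.440%. Most marked promoters therefore hold none of these letters in the window, which says nothing of the rest of the region. Of the 17 Notch-list genes with a marked region over the TSS, 12 had a window, and 3 of these held the core. The rest, Hes1, Hey1, Heyl, Myc and Mfng, were not searched.

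Marked promoters were also richer in GC, with a median of 66.0% against 60.7% in unmarked ones and a median observed-to-expected CpG ratio of 0.849 against 0.789. Across quintiles of GC content the marked share was higher in 5 of 5 for both motifs, by 1.13 to 1.98 times for TGGGAA and 1.22 to 4.06 times for GTGGGAA. At the GC content of the marked promoters the unmarked share was 18.3% for TGGGAA and 4.50% for GTGGGAA. The reverse order of the core's letters, AAGGGT, was in 9.52% of marked, 11.3% of unmarked and 12.5% of all promoters. At the GC content of the marked promoters its unmarked share was 9.77%, a ratio of 0.975. Its marked share was the higher in 1 of 5 quintiles.

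All words of 7 letters were compared in the same way, at the GC content of the marked promoters. Of 3020 words held by at least 200 of the 6244 promoters, CGTGGGA had the highest ratio of marked to unmarked share, 2.94, and GTGGGAA the next, 2.64. These words overlap in 6 letters and together spell the RBPJ site. The middle 95% of words had ratios of 0.649 to 1.46. All 8 words that hold the core had a ratio over 1, from 1.11 for TTGGGAA to 2.64. The third word, CTCGGAA, was at 2.28 and does not hold it.

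Other known promoter motifs, with no adjustment for GC content, gave ratios of marked to unmarked share from 0.830 (TGTGGT) to 1.32 (CACGTG). Without adjustment the ratio was 1.41 for the core TGGGAA, not far above the highest of these, and 2.36 for GTGGGAA. A ratio has little room to rise for a common motif such as GGGCGG (1.27), whose shares lay further apart than those of the core. GGGCGG, the box of Sp-family factors, was in 82.0% of marked, 64.5% of unmarked and 35.9% of all promoters. The E-box CACGTG was in 13.2%, 10.0% and 7.24%, and GCGCATGC, bound by NRF1, in 7.67%, 5.94% and 2.80%. CCAAT was in 39.3%, 38.8% and 37.9%. The ETS core CCGGAA was in 30.3%, 32.5% and 15.2%, and TGTGGT, a Runx motif, in 10.4%, 12.6% and 16.9%. The core also sits inside a longer promoter element bound by ZNF143, and that ZNF143 element, searched after the counts were seen, was in 2.25%, 2.11% and 0.870%.

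Along the window, GTGGGAA was more frequent in marked promoters in all 6 bins of 50 bases. It began from -150 to -100 relative to the start in 3.44% of marked and 0.929% of unmarked promoters, a ratio of 3.70. In the bin from -200 to -150 the shares were 1.46% and 0.948%, a ratio of 1.54, the lowest of the 6. For TGGGAA the median position was -111.5 in marked and -120 in unmarked promoters. By tertile of base mean, GTGGGAA was in 13.5% of the weakest, 12.7% of the middle and 9.52% of the strongest marked promoters.

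**Figure D5:**
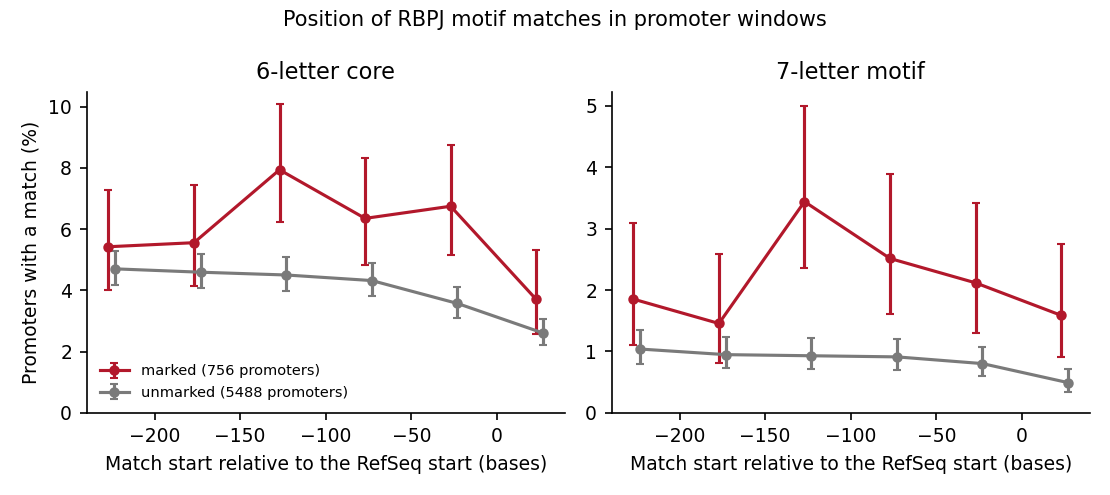
Share of promoters (vertical axis, percent, 95% Wilson intervals) with a match of the 6-letter core (left) or the 7-letter motif (right) beginning in bins of 50 bases relative to the RefSeq start (horizontal axis). For the 7-letter motif the marked promoters peak at 3.44% in the bin from -150 to -100, where unmarked ones are at 0.929%.

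Start sites that face another gene's start were somewhat more common among marked promoters. Of the 756 marked promoters 168 (22.2%, 19.4 to 25.3%) had the start of another gene, on the opposite strand and pointing away, within 1000 bp on GRCm38.p6, against 17.3% (16.4 to 18.4%) of unmarked ones and 10.5% of promoters without a region over the TSS. The authors' table gives 1 symbol per region, also at such shared promoters.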

How the data were processed

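RBPJ, H3K27ac and input were profiled by ChIP-seq in Beko cells, 11 libraries in all. Reads were handled with Bowtie2, SAMtools, deepTools and FastQC on build mm9, per the submitters' processing notes, which give no versions. The region caller, the overlap that earned a mark and the role of the inputs were not given in the labels or headers. Base mean, a signal deposited by the authors under the name DESeq2 uses, averages normalised reads over libraries. It was identical in both deposited comparisons for all 56342 regions, so it is not taken as a value of DMSO cells alone. Distance to a TSS and the overlap mark are the authors' too. Fold changes were not used.

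From these, width (end minus start plus 1), signal per kb, counts, medians and shares were computed with Python 3.11.15, pandas 2.3.3 and SciPy 1.17.1. Regions were joined to RefSeq genes by transcript accession, else symbol (99.5% joined). Promoter windows are on GRCm38.p6, 1 per gene, the first listed. Motifs were searched on both strands, overlapping matches counted. Functions were tested on simulated data. Members and lists were chosen with earlier results of these data known. Genes were named as follows: all marked genes of the Notch lists, the 10 marked regions of highest base mean, the 10 symbols with most marked regions, the 5 farthest, widest, narrowest and strongest off a TSS, and promoters by motif matches. Depth is unknown and limits precision. The alternatives tried are in the closing section.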

Additional observations from a re-analysis of the deposited data

How the results depend on the processing

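The share of marked regions, 2.73%, was 5.24% in the stronger part by base mean (median and up), 1.75% among those no wider than 2000 bp, 8.58% with 1 region per gene symbol, and 3.46% with regions joined over gaps of at most 400 bp. The share of marked regions over a TSS, 61.6%, was 84.6% when 1000 bp counted as the TSS, 52.7% at no more than 2000 bp in width, 77.5% with 1 region per symbol and 77.1% with joined regions, and stayed above the unmarked share in each (18.5%, 8.03%, 51.8% and 18.7%). The ratio of median base mean, 8.49, was 6.01 at no more than 2000 bp, 2.39 per kb, 1.69 with 1 region per symbol, 6.05 by geometric means, 1.78 as the median over width deciles and 6.98 with joined regions. The ratio of median width, 3.15, was 1.37 in that stronger part, 1.24 with 1 region per symbol and 2.80 by geometric means. The distance of regions off a TSS turned with its limit: the ratio of medians was 0.0178 over all of them, 0.0782 by geometric means and 1.47 beyond 1000 bp, where medians were 25736 bp for marked and 17500 bp for unmarked regions. The core's 30.3% of marked promoters was 11.9% for GTGGGAA, and for the control AAGGGT 9.52%, there below the unmarked 11.3%. The other 10 alternatives left the value within the 95% counting interval of the main one, which for ratios was the binomial interval of the marked median over the unmarked median. They include leaving out chromosome 15, genes with 1 promoter window (31.4% of marked and 21.2% of unmarked) and the 250 bases before the start alone. Joined regions, the removal of chromosome 15 and genes with 1 window were chosen after seeing the data. Leaving out libraries was not run, since no value per library was used. No paired analysis was possible because the mark and the base mean are single values over libraries. RBPJ sites outside H3K27ac regions are beyond what the mark can show.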
